A study of Mus musculus with 7 samples.

Results

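The 2 ventricular cultures of cardiac mesenchymal progenitors (CMPs) were compared with the 2 atrial cultures, 4 of the 7 mouse expression arrays of the study. CMPs are adherent stromal cells grown out of adult heart tissue, here of C57BL/6 mice, on dishes coated with collagen I in DMEM/F12 with 10% fetal bovine serum and basic fibroblast growth factor at 40 ng/ml. The 4 arrays were chosen by their labelled tissue source, which gave 1 array for each of living ventricle, postmortem ventricle, living atrium and postmortem atrium. Living tissue was taken fresh and postmortem tissue had been held for 24 h at 4 °C, so the chamber was compared once in a living pair and once in a postmortem pair. The other 3 arrays held commercial adult mouse heart RNA and RNA of 2 fetal C57BL/6 hearts of embryonic day 16.5, 1 wild type and 1 carrying the Myh6-EGFP transgene of the line C57BL/6-Tg(Myh6-EGFP)MG2, which puts a green fluorescent protein under a cardiomyocyte myosin promoter. These hearts entered the model only to help estimate the spread between arrays. Nothing in the labels says whether the cultures came from separate animals, from pools or from 1 animal, so p-values measure only the spread between these arrays, which may be technical.

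Stromal cells of the heart descend mainly from the epicardium, with contributions from endocardium and neural crest, and those of atria and ventricles develop under different positional cues. Homeobox factors such as the Hox and Meox families record position along the body in mesenchyme, Wnt and BMP signals act between neighbouring tissue layers, and pericytes wrap small vessels and share many surface proteins with cultured stromal cells. A whole-culture measurement cannot tell fewer cells of a type from less RNA per cell.

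Levels are log2 processed signals minus the 75th percentile of the array, so 0 is the 75th percentile a difference of 1 is 2-fold, and differences are ventricular minus atrial. The CMP arrays detected 47.1% to 50.5% of probes above background. The cultures carried stromal transcripts: all 6 stromal markers (Thy1, Eng, Nt5e, Cd44, Pdgfra and Col1a1) were detected on every CMP array. Of 6 cardiomyocyte markers, Actc1, Myh6, Tnni3 and Myl7 were not well above background on any CMP array, and the summed level of the 6 on a linear scale was 0.279 and 0.197 in ventricular CMPs and 0.181 and 0.291 in atrial CMPs (living then postmortem), against 1790 to 4670 in the hearts. The postmortem atrial array stood apart: of 24885 genes detected on any array, 4686 to 5295 lay 2-fold or more away from their value on another CMP array, against 2401 to 2716 between the other 3. It is the atrial member of the postmortem pair, so most results are given for both pairs, where the living pair alone is the value without it. Results given only as a fitted difference, a bound or a single list median include the postmortem atrial array.

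Across the 18910 genes tested, 0 passed the limma test for chamber at an adjusted p of 0.05 (0%), with 1561 at an unadjusted p under 0.05 (927 higher and 634 lower in ventricular CMPs). The smallest adjusted p was 0.0558, shared by Rgs5 and Pgm5. Where chamber differences were required to reach 2-fold in the same direction in both pairs, 504 genes qualified (2.67%), 254 higher in ventricular CMPs (1.34%) and 250 lower (1.32%). Of the 504, 258 were well above background on all 4 CMP arrays. A further 135 genes differed at least 2-fold in opposite directions, 105 of them lower in ventricular CMPs in the living pair and higher in the postmortem pair. In the living pair alone 482 genes were at least 2-fold higher and 569 lower in ventricular CMPs, while the postmortem pair gave 1689 and 1050. Pair differences had the same sign for 61.1% of genes, and across genes, which are not independent replicates, they correlated with Pearson's r = 0.358 and Spearman's rho = 0.307. These 2-fold counts carry no test, since each pair has 1 array per chamber, and they use measured signals, dim ones included. For 117 of the 504 the probe was not well above background on both arrays of 1 chamber, so the fold is only a bound, which can be under 2-fold. Both ventricular arrays lay above both atrial arrays at 4071 genes (21.5%) and below them at 2826 (14.9%). At any size, 35.1% of genes tested were higher in ventricular CMPs in both pairs and 26.0% were lower, the shares to set beside list counts. List counts at 2-fold in both pairs are to be set beside 1.34% higher and 1.32% lower.

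**Figure D1:**
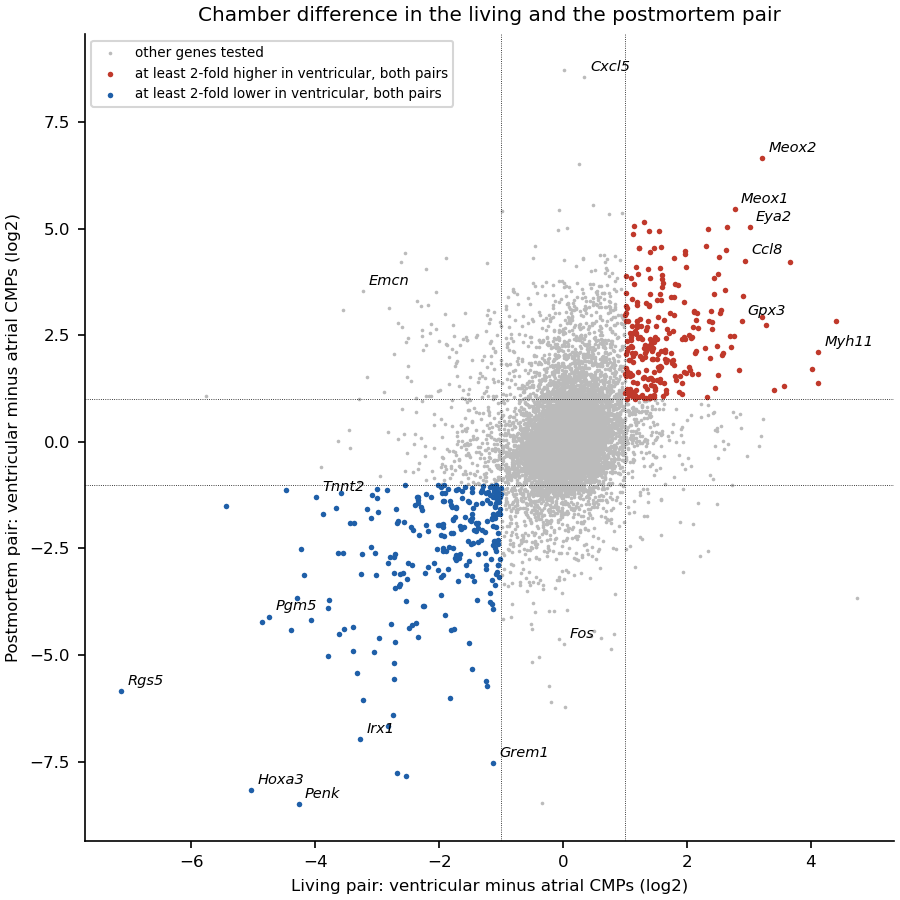
Difference between ventricular and atrial CMPs (log2) in the living pair (horizontal) and the postmortem pair (vertical) for the 18910 genes tested; dotted lines mark 2-fold. Red points are the 254 genes at least 2-fold higher in ventricular CMPs in both pairs, blue points the 250 at least 2-fold lower, and Emcn, Cxcl5 and Fos are labelled as genes whose 2 pairs differ.

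Rgs5, a regulator of G-protein signalling that marks pericytes, was among the lower genes. Rgs5 had levels of -5.54 (living) and -2.59 (postmortem) in ventricular CMPs, against 1.59 and 3.25 in atrial CMPs. Both ventricular arrays lay below both atrial arrays, with differences of -7.13 in the living pair and -5.85 in the postmortem pair, and the fitted difference was -6.49 ± 0.39 (SE, 2 arrays per chamber, adjusted p = 0.0558). Its living ventricular signal was not well above background, which also held for Pgm5, Penk, Itih3, Gprin3, Wif1, Rspo2 and Lhx9, so the measured living difference of these genes is taken against background. The probe lies at chr1:171623021-171623080 (mm9, plus strand).

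Pgm5 (aciculin), a phosphoglucomutase relative found at the junctions that anchor actin in muscle, had levels of -4.42 and -1.55 in ventricular CMPs, against 0.33 and 2.55 in atrial CMPs. The groups did not overlap, and the fitted difference was -4.42 ± 0.24 (adjusted p = 0.0558). Its 2 other probes were lower in ventricular CMPs in both pairs too, with differences of -2.69 and -3.84. The brightest probe lies at chr19:24757846-24757905 (mm9, minus strand).

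The pericyte list held members on both sides. Of 10 pericyte markers tested, 3 were at least 2-fold lower in ventricular CMPs in both pairs and 1 was higher. The shares of all genes tested were 1.32% and 1.34%. The 3 lower ones were Rgs5, Cspg4 and Anpep. The list median was 0.23 against 0.03 for all genes tested, with 0.18 in the living and -0.08 in the postmortem pair. Cspg4, the NG2 proteoglycan of pericytes, had levels of -1.67 and 0.05 in ventricular CMPs, against -0.61 and 2.95 in atrial CMPs; its living atrial value lies between the ventricular ones, so the groups overlap. Anpep, a surface aminopeptidase, differed by -1.01 and -1.57 in the 2 pairs. Ndufa4l2, a mitochondrial protein of pericytes that is induced in low oxygen, had the opposite direction, with 6.88 and 4.76 in ventricular CMPs and 4.38 and 3.18 in atrial CMPs. Pdgfrb, the platelet-derived growth factor receptor that defines mural cells, differed by only 0.01 ± 0.27, with a living pair at 0.14 and a postmortem pair at -0.12. Notch3, a receptor of mural cells, was 0.73 and 1.85 higher in ventricular CMPs. Over the 7 markers used to check for pericytes the summed linear level was 77.8 and 82.9 in ventricular CMPs and 68.0 and 74.2 in atrial CMPs.

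Smooth muscle contractile genes ran both ways. Of 12 tested, 6 were higher in ventricular CMPs in both pairs, where 35.1% of all genes tested were, and 3 were lower, where 26.0% were. Tagln, an actin-binding protein of smooth muscle, had levels of 7.27 and 7.27 in ventricular CMPs and 6.56 and 5.87 in atrial CMPs, a difference of 1.06 ± 0.27 (adjusted p = 0.41). Acta2, smooth muscle actin, had 7.26 and 7.52 in ventricular CMPs and 6.87 and 6.33 in atrial CMPs. In both genes the ventricular arrays lay above the atrial ones. Myh11, smooth muscle myosin, was well above background only in ventricular CMPs, at -2.22 and -4.28, and was at least 1.79-fold higher there (adjusted p = 0.747), while Actg2 was higher by 1.67 and 1.15. Itga8, the integrin chain of contractile and stromal cells, differed by -1.67 and -2.71.

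Among the 14 surface proteins used to describe mesenchymal stromal cells the list median was 0.02. In ventricular CMPs 6 members were higher and 5 lower in both pairs, against 35.1% and 26.0% of all genes tested. Pdgfra differed by 0.02 ± 0.34 and Eng by 0.45 ± 0.29. Nt5e (CD73), an enzyme that makes adenosine outside the cell, had 1.61 and -1.21 in ventricular CMPs and -0.31 and -2.60 in atrial CMPs, higher by 1.92 and 1.39 within the pairs, although the postmortem ventricular value lies below the living atrial one. Alcam (CD166), an adhesion molecule, had -0.89 and 0.84 in ventricular CMPs, against 1.04 and 3.97 in atrial CMPs, with no overlap. Ly6a (Sca-1), a mouse progenitor antigen, differed by -0.64 and -2.25.

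The 15 genes furthest below the atrial level in both pairs, ranked by the smaller pair difference, were Rgs5, Hoxa3, Penk, Gpm6a, Pgm5, Ly6d, Tmod1, Itih3, Isl2, Pcp4l1, Gprin3, Aox3, Plin4, Irx1 and C4bp. Penk, the precursor of the enkephalin opioid peptides, had -4.999 and -2.06 in ventricular CMPs, against -0.73 and 6.44 in atrial CMPs. Gpm6a, a membrane glycoprotein of neurons that is also used as a mesothelial marker, was not well above background in ventricular CMPs, where it measured -6.25 and -4.78, against -1.38 and -0.56 in atrial CMPs, so it was at least 9.63-fold lower (adjusted p = 0.114). Ly6d, a surface protein of the Ly6 family, had -2.65 and -2.05 in ventricular CMPs, against 1.15 and 2.97 in atrial CMPs.

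All 15 of these genes had both ventricular arrays below both atrial arrays, a pattern that the ranking by pair difference favours. Plin4, a coat protein of lipid droplets, differed by -3.33 and -5.43. Tmod1, which caps the slow-growing end of actin filaments, was lower at least 5.68-fold (adjusted p = 0.124), and Itih3, a heavy chain that binds hyaluronan, differed by -4.29 and -3.66. C4bp, a soluble inhibitor of complement, was at least 3.42-fold lower (adjusted p = 0.149).

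The 15 genes furthest above the atrial level were Meox2, Eya2, Ccl8, Vmn1r36, Prl3a1, Gpx3, Meox1, Adm2, Vgf, Arhgap9, Aqp9, Ms4a4d, Mmp1b, Ms4a4b and Gbx2. Gpx3, a secreted glutathione peroxidase, had 5.92 and 4.49 in ventricular CMPs and 3.03 and 1.66 in atrial CMPs. Its pair differences were 2.88 and 2.83, nearly equal, and the fitted difference was 2.86 ± 0.28 (adjusted p = 0.122). Ccl8, a chemokine that draws monocytes, had 2.83 and 0.83 in ventricular CMPs and -0.10 and -3.42 in atrial CMPs, a difference of 3.59 ± 0.48 (adjusted p = 0.147).

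Vgf, a neuronal secretory peptide precursor, had -0.15 and -0.16 in ventricular CMPs and -2.78 and -4.67 in atrial CMPs. Adm2, a vasodilator peptide of the calcitonin family, was not well above background in atrial CMPs and was at least 3.92-fold higher in ventricular CMPs (adjusted p = 0.156). Ms4a4d, a membrane-spanning protein, had 3.29 and 2.06 in ventricular CMPs and 0.77 and -2.27 in atrial CMPs. Probes for Vmn1r36, Prl3a1, Mmp1b, Ms4a4b and Ms4a4d belong to families of closely related genes and may bind relatives, so these 5 are uncertain, and another Ms4a4b probe did not share the sign in both pairs.

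**Figure D2:**
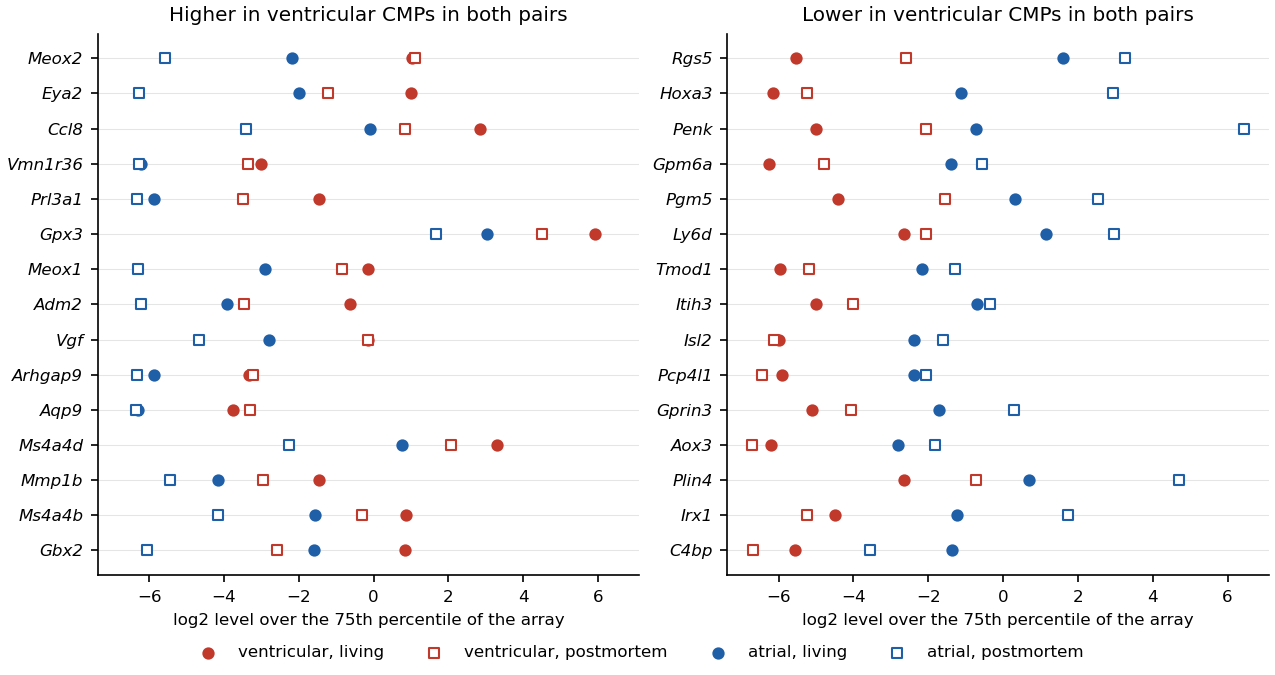
Level (log2 over the 75th percentile of the array) of the 15 genes furthest above and the 15 furthest below the atrial level in both pairs, by the smaller pair difference. Red symbols are ventricular and blue symbols atrial arrays, filled circles living and open squares postmortem; the red and blue symbols separate in each gene except Gbx2, and levels of different genes are not comparable.

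Positional transcription factors held several of the widest differences. Of 9 Hox genes tested out of 33 on the array, 7 were lower in ventricular CMPs in both pairs and 1 was higher. The shares of all genes tested were 26.0% and 35.1%. The list median was -2.03, with pair medians of -0.70 (living) and -3.36 (postmortem). The 4 that were at least 2-fold lower, Hoxa2, Hoxa3, Hoxa5 and Hoxa7, belong to the HoxA cluster on chromosome 6. Hoxa3 had -6.16 and -5.23 in ventricular CMPs, where it was not well above background, against -1.13 and 2.94 in atrial CMPs, at least 35.4-fold lower (adjusted p = 0.188). Hoxa2 was at least 8.14-fold lower and Hoxa5 at least 5.16-fold lower, with adjusted p = 0.446 and 0.545. Hoxa7, detected on all 4 arrays, had -3.54 and -3.94 in ventricular CMPs and -2.39 and -0.13 in atrial CMPs.

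In each of these 4 HoxA genes the postmortem atrial array was the highest CMP array, and the living atrial array was still above both ventricular arrays. Hoxb4 and Hoxb2 differed by -0.70 and -0.40 in the living pair and by -3.36 and -3.30 in the postmortem pair. Hoxd8, of the HoxD cluster, ran the other way, with -0.56 and -1.42 in ventricular CMPs and -2.13 and -6.00 in atrial CMPs, a difference of 3.07 ± 0.95 (adjusted p = 0.486).

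Outside the Hox clusters, 4 of 29 homeobox and other patterning factors tested were at least 2-fold higher in ventricular CMPs and 3 were lower in both pairs, with 14 lower at any size. Meox2, a homeobox factor of somite and limb mesenchyme, had 1.02 and 1.10 in ventricular CMPs and -2.19 and -5.57 in atrial CMPs, a difference of 4.94 ± 1.04 (adjusted p = 0.294). Its relative Meox1 had -0.14 and -0.84 in ventricular CMPs and -2.91 and -6.30 in atrial CMPs, a difference of 4.11 ± 0.62 (adjusted p = 0.18). Eya2, a phosphatase and transcriptional coactivator, had 1.01 and -1.23 in ventricular CMPs and -2.001 and -6.27 in atrial CMPs. For these 3 genes both ventricular arrays exceeded both atrial arrays, and the postmortem atrial signal was not well above background, so their postmortem and fitted differences are taken against background. The postmortem atrial signal was likewise not well above background for Vgf, Ms4a4b, Gbx2, Hoxd8, Tnc, Col27a1, Ccl3, Cxcl3, Ccl11, Lif, Fabp7, Cdh19 and Scn7a. Their postmortem and fitted differences are taken against background too, and some of these genes overlap between the chambers.

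Lhx2, a LIM homeobox factor, was at least 1.31-fold higher in ventricular CMPs (adjusted p = 0.418). Gbx2, a homeobox factor known from the midbrain boundary, was higher by 2.44 and 3.48 within the pairs, but its postmortem ventricular value of -2.58 lay below the living atrial value of -1.60. Irx1, of the Iroquois family, was not well above background in ventricular CMPs at -4.49 and -5.24, against -1.22 and 1.74 in atrial CMPs, at least 22.6-fold lower (adjusted p = 0.201). Tbx15, a T-box factor of skeletal and skin mesenchyme, differed by -1.73 and -2.77, and the LIM factor Lhx9 by -1.47 and -1.69. Meis2 and Foxc2, cofactor and forkhead factor of mesoderm, differed by -0.46 and -0.78 in the living pair and by -1.46 and -1.13 in the postmortem pair.

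Genes that separate atrial from ventricular cardiomyocytes were mostly below detection. Nppa, Myl7, Sln and Bmp10 of the atrial list were not tested, since their probes were not well above background on both arrays of a chamber, and the same held for Myl2, Myl3 and Myh7 of the ventricular list. Of the 6 atrial markers tested, Dkk3, a secreted Dickkopf protein that is high in atria, was lower in ventricular CMPs by 2-fold or more in both pairs, with 4.82 and 5.09, against 6.06 and 7.99 in atrial CMPs (difference -2.07 ± 0.40, adjusted p = 0.255). The 4 arrays did not overlap by chamber. None of the 5 ventricular markers tested reached 2-fold in both pairs. At any size 2 were higher and 2 lower in both pairs, with medians of 0.12 (living) and -0.34 (postmortem). Lbh, a transcription cofactor of the ventricle and limb bud, was higher by 0.50 and 0.88. Of the 6 atrial markers, 2 were lower in ventricular CMPs in both pairs at any size and none was higher.

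The sinus node and venous pole list had 7 tested members with medians of -0.62 and -0.60 in the living and postmortem pair. Osr1, a zinc finger factor of the posterior heart field, had -0.09 and -0.22 in ventricular CMPs, against 1.43 and 4.49 in atrial CMPs. Gata6, a factor of outflow tract and venous pole, differed by -0.62 and -1.14. Shox2, a homeobox regulator of the sinus node, differed by 0.49 ± 0.44. The cardiac factors Gata4 and Tbx20 split between the pairs: Gata4 differed by -0.32 in the living and 2.36 in the postmortem pair, and Tbx20 by -0.06 and 3.28, with the postmortem atrial array the lowest in both genes. Tnnt2, cardiac troponin T, had 0.11 and 2.73 in ventricular CMPs, against 4.10 and 4.02 in atrial CMPs, the 1 sarcomere gene of 8 tested that was at least 2-fold lower in both pairs.

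Wnt pathway genes leaned to the atrial side. Of 21 tested, 12 were lower in ventricular CMPs in both pairs, against 26.0% of all genes tested, and 4 were higher, against 35.1%. Measured signals of 5 were at least 2-fold lower in both pairs, against 1.32% of all genes tested, while none was 2-fold higher. For Axin2, 1 of the 5, the fold is only a bound. The list median was -0.44, with -0.35 in the living and -0.42 in the postmortem pair. Over the members well above background on all 4 CMP arrays it was -0.21. All but Axin2 of the 5 encode secreted proteins. Wif1, which binds Wnt ligands, had -4.26 and -2.32 in ventricular CMPs, against -1.48 and 1.96 in atrial CMPs, a difference of -3.53 ± 0.40 (adjusted p = 0.13). Rspo2, an R-spondin that amplifies Wnt signals, had -5.05 and -2.20 in ventricular CMPs, against -2.61 and 2.09 in atrial CMPs, with overlap between the postmortem ventricular and living atrial arrays. Sfrp2, a secreted Frizzled-related protein, had -0.30 and 1.56 in ventricular CMPs, against 3.37 and 3.102 in atrial CMPs, without overlap.

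Axin2, a feedback target of Wnt signalling, was not well above background in ventricular CMPs at -5.61 and -5.68, against -3.61 and -3.72 in atrial CMPs, at least 1.49-fold lower (adjusted p = 0.515). Sfrp4 differed by -0.78 and -1.50, the ligand Wnt5a by -0.54 and -0.83, and the receptor Fzd2 by -0.45 and -0.42. Frzb, another Frizzled-related antagonist, was the reverse, with 6.01 and 5.67 in ventricular CMPs and 5.08 and 4.70 in atrial CMPs, a difference of 0.95 ± 0.16 (adjusted p = 0.198). Its ventricular arrays both lay above the atrial ones.

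In the TGF-beta and BMP pathway 30 genes were tested. Of these, 4 were at least 2-fold lower in ventricular CMPs in both pairs, against 1.32% of all genes tested. None was 2-fold higher, against 1.34%. The list median was -0.16, with 0.06 in the living and -0.26 in the postmortem pair. Among ligands, Bmp4 had 3.13 and 4.64 in ventricular CMPs, against 4.85 and 6.20 in atrial CMPs, with pair differences of -1.73 and -1.56 (difference -1.64 ± 0.21, adjusted p = 0.131). The groups did not overlap, but another Bmp4 probe did not share the sign in both pairs. Bmp3 was at least 2.83-fold lower (adjusted p = 0.772). Bmp6 had the opposite direction, higher by 0.89 and 2.98, as did Gdf6, by 0.63 and 1.84.

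Grem1, a secreted BMP antagonist, had -1.59 and -3.29 in ventricular CMPs, against -0.45 and 4.24 in atrial CMPs, with a difference of -1.14 in the living pair and -7.53 in the postmortem pair. Fst, follistatin, which binds activins, differed by -0.47 and -1.60. Tgfbr2, the type II receptor of TGF-beta, differed by -0.52 and -1.49. Tgfbi, a matrix protein induced by TGF-beta, had 4.40 and 5.11 in ventricular CMPs, against 6.07 and 7.08 in atrial CMPs, with no overlap (difference -1.82 ± 0.35, adjusted p = 0.247).

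Matrix genes differed in both directions. Of 28 matricellular and proteoglycan genes tested, 3 were at least 2-fold higher and 3 at least 2-fold lower in ventricular CMPs in both pairs. The shares of all genes tested were 1.34% and 1.32%. Postn (periostin), a matricellular protein of activated fibroblasts, had 4.92 and 5.92 in ventricular CMPs and 2.93 and 1.81 in atrial CMPs, a difference of 3.05 ± 0.48 (adjusted p = 0.184), with all ventricular values above the atrial ones. Sparcl1 (hevin) had 3.44 and 3.27 in ventricular CMPs and 2.08 and 1.02 in atrial CMPs. Tnc (tenascin C) was higher by 1.10 and 3.85 within the pairs.

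On the atrial side, Smoc1, a calcium-binding matrix protein that modulates BMP signals, had 1.43 and 2.51 in ventricular CMPs, against 3.47 and 5.02 in atrial CMPs. Nov (CCN3) differed by -1.51 and -2.79 and Omd (osteomodulin) by -1.32 and -2.31. Lum, lumican, differed by -0.84 and -2.87. The chondroitin sulphate proteoglycan Vcan and the small leucine-rich protein Aspn were higher by 0.91 and 0.88 in the living pair and by 1.56 and 2.78 in the postmortem pair.

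Collagens were more often on the ventricular side. Of 24 chains tested, 14 were higher in ventricular CMPs in both pairs and 2 were lower, against 35.1% and 26.0% of all genes tested. The list median was 0.47, and Col27a1 alone was at least 2-fold higher in both pairs. The basement membrane chain Col4a1 had 6.28 and 6.80 in ventricular CMPs and 5.50 and 4.50 in atrial CMPs, and its partner Col4a2 had 6.22 and 6.58 in ventricular CMPs and 5.66 and 4.91 in atrial CMPs. Both genes separated the chambers. The fibrillar chains Col1a1 and Col3a1 differed less, with Col1a1 higher by 0.13 and 0.25 and Col3a1 by 0.22 and 0.82.

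Among 20 matrix proteases and inhibitors tested, 3 were at least 2-fold higher in ventricular CMPs in both pairs, with Adamts12 and Serpine2 among them. Adamts15 was at least 2-fold lower. The shares of all genes tested were 1.34% and 1.32%. Serpine2, a secreted inhibitor of serine proteases, had 3.40 and 3.11 in ventricular CMPs and 2.29 and 1.98 in atrial CMPs (difference 1.12 ± 0.29, adjusted p = 0.41). Adamts15, a metalloprotease that cleaves proteoglycans, had -2.95 and -3.93 in ventricular CMPs, against -0.12 and 2.74 in atrial CMPs. Timp2 differed by -0.40 and -0.72 and the gelatinase Mmp2 by -0.71 and -1.13, whereas Adamts9 was higher by 0.95 and 1.38.

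Chemokines and inflammatory cytokines had the highest list median, 1.47 over 22 tested genes, with 0.62 in the living and 2.57 in the postmortem pair. Besides Ccl8, Ccl3, Cxcl3, Ccl11 and Lif were at least 2-fold higher in ventricular CMPs in both pairs, and none was 2-fold lower. The shares of all genes tested were 1.34% and 1.32%. Ccl3, a macrophage inflammatory protein, had -1.74 and -3.77 in ventricular CMPs and -3.65 and -6.20 in atrial CMPs, where the postmortem signal was not well above background. Lif, an interleukin-6 family cytokine, was higher by 1.47 and 1.65, Cxcl3 by 1.79 and 3.41, and the eosinophil chemokine Ccl11 by 1.71 and 2.55. In each of these 4 genes the postmortem ventricular value was below the living atrial value, so the chambers overlapped when the pairs were mixed.

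Ccl2, Il6 and Cxcl5, all inflammatory signals, had their lowest level on the postmortem atrial array. Ccl2 had 8.41 and 7.17 in ventricular CMPs and 7.58 and 3.41 in atrial CMPs, Il6 had 5.95 and 3.55 in ventricular CMPs and 5.07 and -0.29 in atrial CMPs, and Cxcl5 had 8.67 and 6.65 in ventricular CMPs and 8.34 and -1.91 in atrial CMPs. The living pair alone gave 0.83, 0.88 and 0.34 for these genes. Cxcl12, a stromal chemokine that holds blood progenitors, went the other way and differed by -0.42 and -1.97.

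Of 23 interferon-stimulated genes tested, 16 were higher in ventricular CMPs in both pairs and none was lower in both. Among all genes tested the shares were 35.1% and 26.0%. The list medians were 0.16 in the living and 1.80 in the postmortem pair. Oas1a, an antiviral oligoadenylate synthetase, had 4.03 and 4.65 in ventricular CMPs and 3.01 and 1.16 in atrial CMPs, a difference of 2.26 ± 0.56 (adjusted p = 0.389). Cxcl10, a chemokine induced by interferon, had 2.24 and 1.67 in ventricular CMPs and 0.83 and -2.17 in atrial CMPs, though its other probe did not share the sign in both pairs. These 2 reached 2-fold in both pairs. Isg15, a ubiquitin-like protein, was higher by 0.40 and 2.07, Ifit1 by 0.16 and 1.86, Mx1 by 0.76 and 2.22 and Rsad2 by 0.46 and 2.79, with the larger difference in the postmortem pair each time.

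Promoters of the 2 genes that reached 2-fold in both pairs are shown as examples from the list. Tested members lay to 1 side mainly in the postmortem pair, with 22 higher in ventricular CMPs and 1 lower. In the living pair 17 were higher and 6 lower, where 58.9% of all genes tested were higher. The windows span 250 bases before to 50 bases after the RefSeq gene start (build GRCm38.p6, read on the gene's strand), and capitals mark matches on either strand to GAAANNGAAA, the core of the element bound by interferon-activated factors. The Oas1a window, chr5:120907476-120907775 (minus strand), holds 2 overlapping matches, and the Cxcl10 window, chr5:92348840-92349139 (minus strand), holds 1. Of the 18 tested list members with a window, 12 held a match (66.7%), against 3.99% of 27025 genes with a window. This share covers tested members whichever way they differed, so it does not bear on the chamber difference. Of 3 motifs searched, the CArG box bound by serum response factor had no match in the 9 tested smooth muscle contractile genes with a window, against 1.81% of all genes. The matches are a description of letters, not of binding.
Oas1a: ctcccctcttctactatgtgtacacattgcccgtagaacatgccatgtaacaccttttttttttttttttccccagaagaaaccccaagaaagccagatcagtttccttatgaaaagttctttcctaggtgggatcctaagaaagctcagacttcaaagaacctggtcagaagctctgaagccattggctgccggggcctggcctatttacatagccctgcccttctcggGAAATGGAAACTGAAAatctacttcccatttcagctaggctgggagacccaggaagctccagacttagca
Cxcl10: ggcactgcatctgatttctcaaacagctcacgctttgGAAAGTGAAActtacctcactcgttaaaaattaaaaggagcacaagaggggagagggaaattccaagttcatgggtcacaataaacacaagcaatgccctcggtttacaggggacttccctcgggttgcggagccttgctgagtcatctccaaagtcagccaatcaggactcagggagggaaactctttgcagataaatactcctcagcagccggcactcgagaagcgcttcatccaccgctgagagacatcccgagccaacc

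Hypoxia-responsive genes lay mostly on the ventricular side in both pairs. Of 19 tested, 17 were higher in ventricular CMPs in the living pair, where 58.9% of all genes tested were, and 13 in the postmortem pair, where 50.2% were, and the medians were 0.83 and 0.25. P4ha2, a collagen prolyl hydroxylase, had 6.10 and 4.76 in ventricular CMPs and 4.54 and 2.98 in atrial CMPs (difference 1.67 ± 0.24, adjusted p = 0.156). Vegfa, the vascular endothelial growth factor, had 4.58 and 3.53 in ventricular CMPs and 3.12 and 2.21 in atrial CMPs, higher by 1.47 and 1.32, and another probe shared the sign (difference 1.39 ± 0.16, adjusted p = 0.13). Both genes separated the chambers.

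Ddit4 (REDD1), an inhibitor of mTOR signalling, had 7.39 and 6.18 in ventricular CMPs and 6.07 and 3.90 in atrial CMPs. Bnip3, a mitophagy receptor, was higher by 1.21 and 0.73, Pdk1, a kinase that shuts pyruvate out of mitochondria, by 0.92 and 1.08, Hk2, a hexokinase, by 0.77 and 2.37, and the glucose transporter Slc2a1 by 0.79 and 0.22. Of the 19 genes 2 were lower in ventricular CMPs in both pairs, and only Ndrg1, also a stress gene, was at least 2-fold lower. Ndrg1 had 2.02 and 2.07 in ventricular CMPs, against 3.57 and 5.18 in atrial CMPs.

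Windows of Ddit4 (chr10:59951721-59952020, minus strand) and P4ha2 (chr11:54100674-54100973, plus strand), on the same build and of the same span, are shown for 2 of the 3 hypoxia genes at least 2-fold higher in both pairs, with ACGTG, the core of the element bound by hypoxia-inducible factors, in capitals on either strand. Such a match can overlap the E-box CACGTG. Ddit4 held 1 match and P4ha2 2. Of 18 tested members with a window, 15 held a match (83.3%), against 21.8% of all genes with a window. Here too the share covers tested members whichever way they differed and does not bear on the chamber difference.
Ddit4: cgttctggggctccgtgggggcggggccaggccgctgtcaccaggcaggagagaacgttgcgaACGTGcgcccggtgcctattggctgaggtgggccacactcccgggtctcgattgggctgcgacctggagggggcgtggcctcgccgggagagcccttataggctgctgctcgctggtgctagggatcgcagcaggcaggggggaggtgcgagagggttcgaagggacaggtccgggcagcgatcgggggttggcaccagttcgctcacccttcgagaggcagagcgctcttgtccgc
P4ha2: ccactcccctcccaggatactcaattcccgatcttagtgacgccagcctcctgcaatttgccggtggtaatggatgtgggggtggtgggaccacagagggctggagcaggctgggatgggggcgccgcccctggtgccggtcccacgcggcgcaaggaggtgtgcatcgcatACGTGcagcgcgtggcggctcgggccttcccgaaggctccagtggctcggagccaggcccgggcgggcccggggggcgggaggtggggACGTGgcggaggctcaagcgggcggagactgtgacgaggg

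Among 27 growth factor genes tested, Vegfa and Igf1 were at least 2-fold higher and Hgf at least 2-fold lower in ventricular CMPs in both pairs. Igf1, insulin-like growth factor 1, had 2.95 and 1.15 in ventricular CMPs and 1.61 and -0.53 in atrial CMPs (difference 1.51 ± 0.20, adjusted p = 0.147), with 3 of 4 other probes sharing the sign. Hgf, hepatocyte growth factor, had 1.95 and 0.17 in ventricular CMPs, against 3.33 and 2.53 in atrial CMPs. Igfbp2 differed by -1.96 and -0.99, and Pdgfc by -0.53 and -3.35.

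Cell cycle genes showed small differences, mostly toward higher levels in ventricular CMPs. Of 22 tested, 17 were higher in ventricular CMPs in both pairs and 1 was lower in both, against 35.1% and 26.0% of all genes tested. The list median was 0.32, and no member reached 2-fold in both pairs. Rrm2, which makes deoxynucleotides, had 3.31 and 3.89 in ventricular CMPs and 2.53 and 2.93 in atrial CMPs, a difference of 0.87 ± 0.20 (adjusted p = 0.337). Mki67 was higher by 0.32 in each pair, and the mitotic kinase Aurka by 0.64 and 0.43.

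Some glial genes were higher in ventricular CMPs in both pairs. Of 8 Schwann and neural crest genes tested, Fabp7, Cdh19 and Scn7a were at least 2-fold higher in ventricular CMPs in both pairs, against 1.34% of all genes tested. No other member had the same sign in both pairs. In the living pair 4 members were higher and 4 lower, with a median of 0.08. In the postmortem pair 7 were higher and 1 lower, with a median of 1.92. Fabp7, a fatty acid binding protein of radial glia, had 1.30 and -1.58 in ventricular CMPs and -0.10 and -6.02 in atrial CMPs. The 4 Schwann markers used to check the cell type had summed linear levels of 2.61 and 7.93 in ventricular CMPs and 7.08 and 4.16 in atrial CMPs.

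Of 26 axon guidance and adhesion genes tested, 6 were higher and 15 lower in ventricular CMPs in both pairs, against 35.1% and 26.0% of all genes tested. The list median was -0.43. Ncam1, the neural cell adhesion molecule, had 3.99 and 2.30 in ventricular CMPs and 1.96 and 0.53 in atrial CMPs, higher by 2.04 and 1.77, and its 2 other probes shared the sign (difference 1.90 ± 0.18, adjusted p = 0.114). Itga11, a collagen-binding integrin chain, had 6.15 and 6.34 in ventricular CMPs and 4.43 and 3.32 in atrial CMPs. Cdh13 (T-cadherin) differed by -1.78 and -2.48, with another probe that did not share the sign, and Itgbl1 differed by -1.01 and -1.22. The complement genes Cfb and C4b differed by -1.94 and -1.86 in the living pair and by -2.001 and -1.11 in the postmortem pair. Rgs16, a regulator of G-protein signalling, and the adenosine receptor Adora2b were higher by 1.65 and 1.45 in the living pair and by 2.16 and 2.21 in the postmortem pair, whereas Npr3, the clearance receptor of natriuretic peptides, differed by -2.45 and -2.003.

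**Figure D3:**
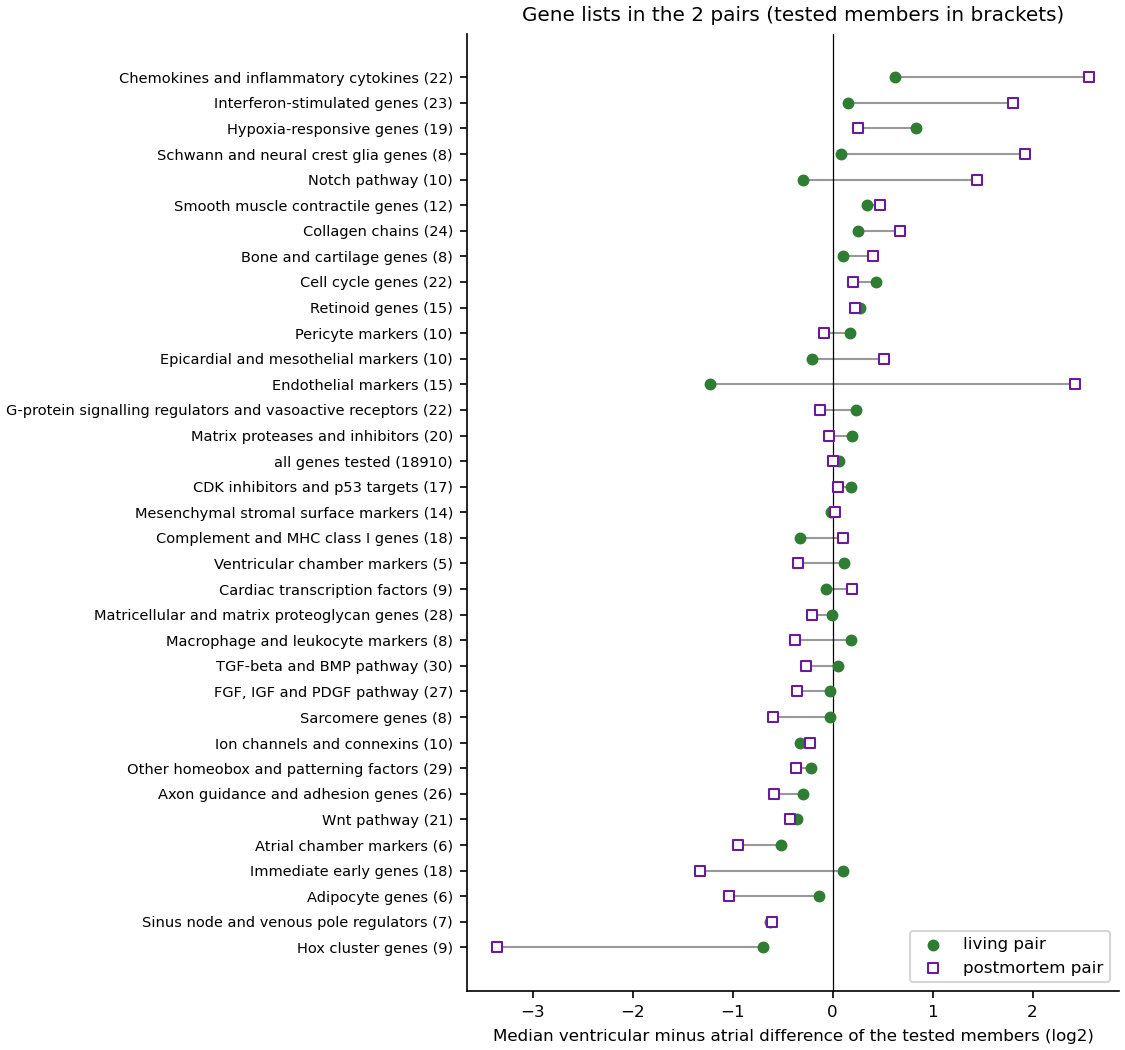
Median difference between ventricular and atrial CMPs (log2) over the tested members of each of 34 gene lists and over all genes tested, in the living pair (green circles) and the postmortem pair (open purple squares). In the postmortem pair chemokines lie furthest to the ventricular side and Hox genes furthest to the atrial side, and the endothelial list has pair medians of -1.23 and 2.42.

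Some lists differed in opposite directions in the 2 pairs. Of 15 endothelial markers tested, 1 was higher and 14 were lower in ventricular CMPs in the living pair, and 12 were higher and 3 lower in the postmortem pair. Of all genes tested, 58.9% were higher in the living pair and 50.2% in the postmortem pair. Cdh5 (VE-cadherin) had 0.25 and 1.17 in ventricular CMPs and 1.87 and -1.25 in atrial CMPs. Emcn (endomucin) had -3.23 and -0.10 in ventricular CMPs and 0.00 and -3.64 in atrial CMPs, and Pecam1 had -2.14 and -1.61 in ventricular CMPs and -1.29 and -2.73 in atrial CMPs. The living atrial array was the highest of the 4 for all 3 genes and the postmortem atrial array the lowest.

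The summed linear level of 6 endothelial markers was 12.8 and 10.4 in ventricular CMPs and 16.5 and 9.64 in atrial CMPs, and the part of these cells in the other differences was not tested. Immediate early genes were near equal in the living pair, with a median of 0.10, and lower in ventricular CMPs in the postmortem pair, with a median of -1.33 over 18 tested genes. Fos, an AP-1 subunit, had 1.44 and 0.24 in ventricular CMPs and 1.43 and 4.98 in atrial CMPs. Egr1 differed by -0.06 and -2.60 and Klf4 by -0.52 and -1.20.

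**Figure D4:**
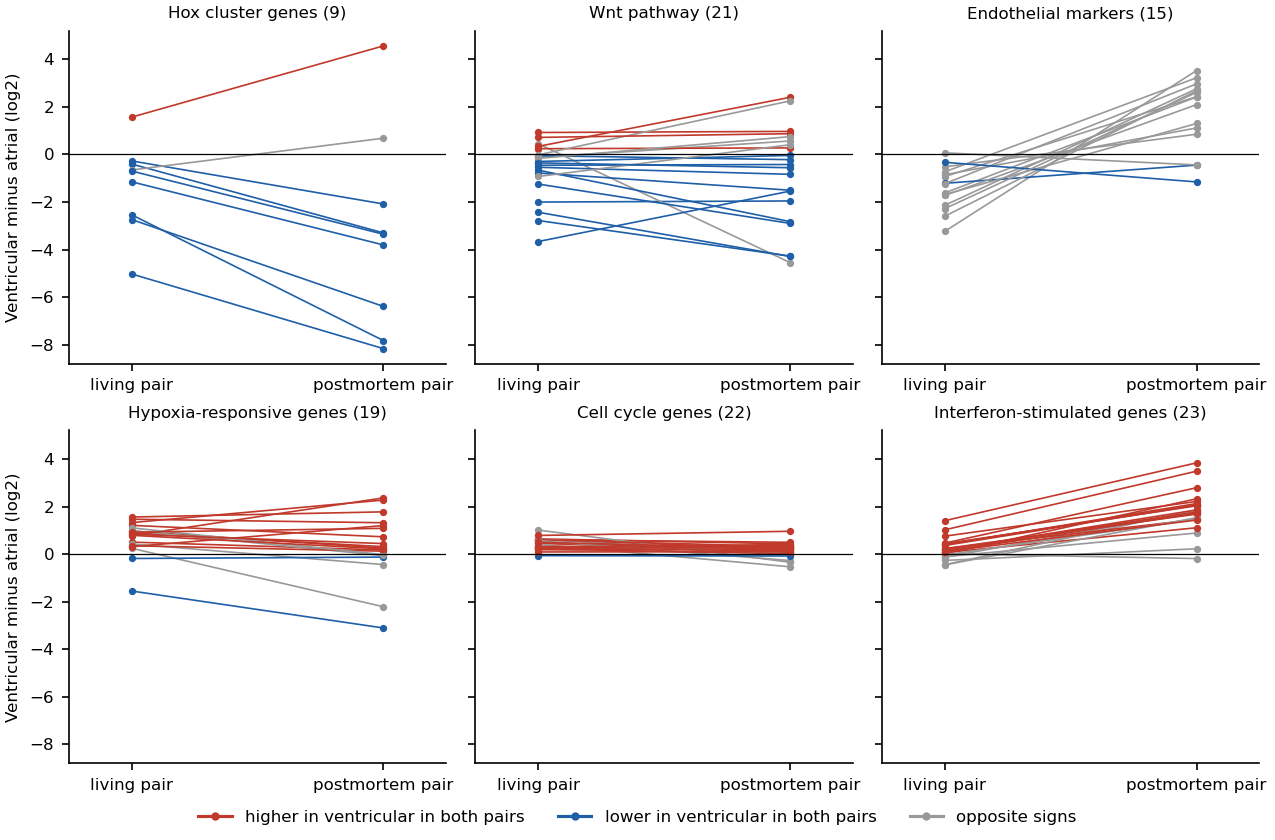
Difference between ventricular and atrial CMPs (log2) of each tested member of 6 gene lists in the living and the postmortem pair, with 1 line per gene (red, higher in ventricular CMPs in both pairs; blue, lower in both; grey, opposite signs). Hox and Wnt genes lie mostly below 0, interferon, hypoxia and cell cycle genes mostly above, and most endothelial lines cross 0.

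The limma test of the difference between the pairs, called 453 of 18910 genes (2.40%), 308 with a higher value in the postmortem pair and 145 with a lower one. It has 1 array in each arm and takes its spread from the 2 fetal hearts of different genotype, so it holds no spread between CMP cultures. Under quantile normalization it called 0 genes (smallest adjusted p = 0.122, 1034 at an unadjusted p under 0.05). Of the genes named above that reached 2-fold in 1 direction in both pairs, it called Grem1, Penk, Irx1, Hoxa2, Hoxa3, Hoxa5, Osr1 and Adamts15, whose gap was wider in the postmortem pair on the atrial side, and Meox1, Meox2, Postn, Fabp7, Oas1a and Lpl, whose gap was wider in the postmortem pair on the ventricular side. Tnnt2 and Sfrp2 were called with a wider gap in the living pair. Lpl, lipoprotein lipase, had 5.58 and 4.60 in ventricular CMPs and 3.73 and 0.91 in atrial CMPs.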

How the data were processed

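The arrays were 1-colour Agilent 8x60K mouse designs hybridised with Cy3-labelled RNA made from 250 ng. Per the file headers, Agilent Feature Extraction 10.7.3.1 produced the deposited processed signal, a background-subtracted and detrended intensity; the submitters' processing notes name version 9.5.3. The deposited series table holds log2 values that differ from the log2 processed signals by a constant per array. All 7 arrays shared 1 slide and 1 scan time.

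Here, spots of a probe were averaged on the log2 scale, the 75th percentile over 55681 probes was subtracted per array, and each gene took its probe of highest mean. Of 34792 gene names, 18910 were tested, those well above background on both arrays of at least 1 chamber. limma 3.58.1 (R 4.3.3; lmFit, eBayes with trend) fitted tissue state and chamber over 7 arrays with 2 residual degrees of freedom, with Benjamini-Hochberg adjustment. The test was tried on simulated data. A gene not well above background on both arrays of 1 chamber is given as "at least N-fold": the bright mean against, per array, the higher of its own value and the lowest signal well above background.

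Of 34792 gene names, 22063 matched the RefSeq gene table. Named genes were those called, the 15 highest and 15 lowest by the smaller pair difference, list members at least 2-fold apart in both pairs, and up to 4 other members per list. The comparison and its 34 gene lists were chosen with earlier results of these data known. Alternatives covered background correction, normalization, probe choice, filters, the limma prior, the arrays fitted and the fold required. Tables used Python 3.11.15, pandas 2.3.3 and numpy 2.4.6. The number of arrays limits the precision. Some named genes are not reported here.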

Additional observations from a re-analysis of the deposited data

Results flagged for a closer look

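For 30 of the named genes the limma test of the difference between the living and the postmortem pair gave an adjusted p under 0.05. Values in brackets are the ventricular minus atrial difference (log2) of the postmortem pair minus that of the living pair. Each arm of the test has 1 array and its spread is that of the 2 fetal hearts, so it does not show that the pairs differ beyond the spread between CMP cultures, and under quantile normalization it called 0 genes, with 1034 at an unadjusted p under 0.05.

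Among positional and heart field factors, the difference was more negative in the postmortem pair for Hoxa2 (-5.29), Hoxa3 (-3.14), Hoxa5 (-3.66), Hoxb2 (-2.90), Hoxb4 (-2.66), Irx1 (-3.70) and Osr1 (-3.20), and more positive for Meox1 (2.68), Meox2 (3.45), Gata4 (2.68) and Tbx20 (3.34). Among secreted and matrix genes it was more negative for Grem1 (-6.39), Penk (-4.23), Adamts15 (-3.84), Lum (-2.03) and Pdgfc (-2.83). Of the immediate early genes, Fos (-4.76) and Egr1 (-2.53) differed.

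It was more positive in the postmortem pair for the inflammatory genes Cxcl5 (8.22), Il6 (2.97), Ccl2 (2.93) and Oas1a (2.47), for the endothelial genes Emcn (6.77) and Cdh5 (4.04), and for Fabp7 (3.05), Lpl (1.84), Postn (2.12) and Bmp6 (2.09). For Tnnt2 (2.69) and Sfrp2 (2.12) the ventricular level was lower in both pairs and the gap was wider in the living pair. The postmortem atrial array, which stood apart from the other 3, enters each of these values, and its part in them was not tested.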

How the results depend on the processing

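The count of 0 genes called for chamber was 0 as well under quantile normalization, the deposited series table, the mean of a gene's probes, probes detected on all 4 CMP arrays, a prior that was robust or without trend, only the 4 CMP arrays, no tissue state term, and without either fetal heart. It was 5 under normexp background correction, 25 with no filter on dim probes, and 2 (Rgs5 and Pgm5, adjusted p = 0.0467) with the prior taken over genes detected on any array, a setting chosen after seeing the data. The smallest adjusted p of limma, 0.0558 in the main fit, was 0.448 with only the 4 CMP arrays, where the fetal pair adds nothing to the spread. Leaving out 1 CMP array gave 276 to 1346 calls, with 276 without the postmortem ventricular, 288 without the postmortem atrial, 1342 without the living ventricular and 1346 without the living atrial array; the residual spread then came from the fetal pair alone. Genes at least 2-fold higher and lower in both pairs numbered 94 and 101 under normexp, 415 and 381 with no filter, 118 and 140 with detection on all 4 arrays, 722 and 525 at 1.5-fold, and 44 and 67 at 4-fold; these counts need all 4 CMP arrays. The difference between the pairs called 0 genes under quantile normalization. The sign turned for the gene Pdgfrb (-0.0352) and the gene Pdgfra (-0.0317) under quantile normalization and, with 1 CMP array left out, for Gata4 (-0.32 to 2.36), Tbx20 (-0.0628 to 3.28), Pdgfrb (-0.12 to 0.14), Pecam1 (-0.85 to 1.12), Cdh5 (-1.61 to 2.42), Emcn (-3.23 to 3.53) and Fos (-4.75 to 0.0096). The arrays were paired by tissue state, a term of the fit; without it 0 genes were called, with 959 at an unadjusted p under 0.05. The cause of these movements was not tested. Of the 504 genes at 2-fold in both pairs, 117 had a probe not well above background on both arrays of 1 chamber, and their folds are bounds.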

Other observations

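Several lists held few wide gaps in both pairs. Of 8 macrophage and leukocyte markers tested, Lyz1, a lysozyme, was at least 2-fold higher in ventricular CMPs, with levels of 1.96 and 1.94, against 0.79 and 0.72 in atrial CMPs. The 5 macrophage markers used to check the cell type had summed linear levels of 70.1 and 46.9 in ventricular CMPs and 67.3 and 61.9 in atrial CMPs, and Emr1 was not well above background on any of the 4. Of 10 epicardial and mesothelial markers tested, Gpm6a and Msln had measured signals at least 2-fold lower in both pairs, against 1.32% of all genes tested. Msln (mesothelin), however, was not well above background in ventricular CMPs and its bound is at least 1.88-fold (adjusted p = 0.492). Another 2 members were higher in both pairs, none by 2-fold. List medians were -0.21 in the living and 0.51 in the postmortem pair. The 6 epicardial markers used to check the cell type had summed linear levels of 0.359 and 0.988 in ventricular CMPs and 1.61 and 1.27 in atrial CMPs, and Wt1 and Bnc1 were not well above background on any of the 4.

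Of 15 retinoid genes tested, Rarres1, a gene induced by retinoids, had -0.70 and -0.44 in ventricular CMPs, against 1.05 and 3.95 in atrial CMPs. Kcnd3, a potassium channel chain among 10 ion channel and connexin genes tested, was lower at least 2.69-fold (adjusted p = 0.304), though its other probe did not share the sign. Pmaip1, a p53 target that promotes cell death, had 1.47 and 1.63 in ventricular CMPs and 0.16 and -0.57 in atrial CMPs. None of the 8 bone and cartilage genes or 10 Notch pathway genes tested reached 2-fold in both pairs, and the Notch list had medians of -0.29 in the living and 1.44 in the postmortem pair.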
